A study of Homo sapiens with 16 samples.

Results

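The cytosolic ribosomal protein genes are described here across 16 RNA-seq libraries of human anaplastic thyroid carcinoma cell lines. They were chosen by name among the protein-coding rows of the normalized count table (symbols of the form RPL or RPS followed by a number, plus RPLP0, RPLP1, RPLP2 and RPSA, without the RPS6 kinase genes) with a mean of at least 500 normalized counts over the 16 libraries. This gave 81 of the 60715 genes in the table, 32 of the small (40S) and 49 of the large (60S) ribosomal subunit. The rule itself uses names and the mean over all libraries. The name alone matched 84 genes. RPS27L lay just inside the minimum with a mean of 749 normalized counts and RPL39L just outside it with 335, and RPL10L and RPL3L were the others left out, with means of 0.132 and 1.18. The 4 ribosomal or ribosome-bound proteins whose symbols have another form (FAU, RPL36AL and RACK1 among them) were treated as a separate list.

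The lines were 8505c, which carries a BRAF mutation, and CAL62, which carries a K-RAS mutation. Each was kept in 10% FBS and exposed for 24 h to DMSO as the vehicle, to DEL-22379 at 1 µM or at 10 µM, or to U0126 at 10 µM. All 8 groups had 2 biological replicates. DEL-22379 was developed as an inhibitor of ERK dimerization, and U0126 inhibits the kinases MEK1 and MEK2, which phosphorylate ERK. The comparisons ask how these genes differed from vehicle with each compound in each line, and neither ERK dimerization nor phosphorylation was measured in these libraries. The sample labels give the doses in mM and the study's methods in µM, and µM is used here. Each genotype is represented by 1 established line, so a difference between lines cannot be assigned to the driver mutation. With 2 replicates a group, the smallest two-sided p of an exact permutation test between any 2 groups is 0.33, so single values are reported with the spread between libraries and the tests come from a fit across all genes.

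Ribosomal proteins coat and stabilize the ribosomal RNA of the 2 subunits, and most are present in a single copy per ribosome, so cells make them in matched amounts. Their mRNAs begin with a 5′ terminal oligopyrimidine tract, an uninterrupted stretch of C and T (U in the RNA) at the first transcribed bases, through which mTOR and the RNA-binding protein LARP1 control their translation and stability. Transcription of many ribosomal protein genes is promoted by MYC, a target of ERK signaling. Some of the proteins have a second role outside the ribosome: free RPL5 and RPL11, bound to the 5S rRNA, inhibit MDM2, and RPS6 is phosphorylated by kinases downstream of mTOR and ERK.

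In the genome a run of at least 8 C and T bases lies at or near most starts of these genes. Some runs begin inside the transcript, at base 11 for RPL15 and RPL27, and need not be the terminal tract. Windows at 10 starts are shown because the results turn on the genes they belong to. Each sequence is a RefSeq window on GRCh38.p14 of 30 bases in the direction of transcription, 10 bases before the annotated start and 20 from it, with its longest uninterrupted run of C and T in capitals. RPL10, RPL26L1 and the other genes with several annotated starts were represented by the start with the longest run.
RPL22L1, chr3:170870176-170870205, minus strand: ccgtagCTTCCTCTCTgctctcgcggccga
RPL22, chr1:6199576-6199605, minus strand: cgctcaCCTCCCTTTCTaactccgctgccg
RPL28, chr19:55385922-55385951, plus strand: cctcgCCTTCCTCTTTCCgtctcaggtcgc
RPS9, chr19:54200848-54200877, plus strand: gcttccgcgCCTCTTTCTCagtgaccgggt
RPL10, chrX:154398367-154398396, plus strand: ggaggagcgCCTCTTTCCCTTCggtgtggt
RPS24, chr10:78033853-78033882, plus strand: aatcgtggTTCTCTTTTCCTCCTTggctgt
RPL17, chr18:49492446-49492475, minus strand: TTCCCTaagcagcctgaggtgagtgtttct
RPL26L1, chr5:172958719-172958748, plus strand: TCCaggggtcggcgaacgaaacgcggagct
RPL7L1, chr6:42879606-42879635, plus strand: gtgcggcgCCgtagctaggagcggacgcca
RPS27L, chr15:63157458-63157487, minus strand: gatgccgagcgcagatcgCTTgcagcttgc
RPS24 had the longest run of these, 16 bases, while the paralogs RPL7L1, RPS27L and RPL26L1 had runs of only 2, 3 and 3 bases. RPL22L1, also a paralog, had a run of 10 bases, close to the 11 of its partner RPL22. RefSeq start sequences were matched for 66 of the 81 genes. A run of at least 8 bases on the transcribed strand was found at 1 or more starts in 54 of these 66 (81.8%), against 4215 of 27305 genes (15.4%) over all promoters. Counted by start, it was 57 of 82 (69.5%) against 4465 of 35116 (12.7%). The 12 genes with no such run were RPL7L1, RPL26L1, RPS27L, RPL6, RPS29, RPS4X, RPL3, RPL32, RPL17, RPL12, RPS3A and RPL36.

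The libraries held 25683056 to 43855907 assigned reads, and the lowest count behind any of the 81 genes in a library was 457 reads, for RPS27L, and the highest 107411, for RPS2. Together the 81 genes took 3.77% and 4.29% of all normalized counts in the 8505c DMSO libraries and 4.46% and 4.84% in the CAL62 DMSO libraries. The exact 95% binomial interval of such a share reached at most 0.00798 percentage points to either side, and covers counting error only. Per kilobase of transcript, RPS2 (67701 normalized counts per kb on the mean over libraries) and RPL41 (64071) were the most abundant, RPLP1 reached 51759, and the median gene reached 20612. The lowest levels per kb belonged to paralogs, with 927 for RPS27L, 1709 for RPL26L1, 2019 for RPL22L1 and 2088 for RPL7L1. Annotated ribosomal protein pseudogenes, which share sequence with the 81 genes, took 0.0408% to 0.0687% of counts, and 36 of the 81 genes overlap another protein-coding gene (9 of them on the same strand), so levels are uncertain as far as reads were split between them. Thyroid identity genes were largely absent. TSHR was listed at 0 in all libraries, TG and SLC5A5 did not exceed 88.8, PAX8 was high only in CAL62 (7285 to 12449) and NKX2-1 only in 8505c (3765 to 6235).

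**Figure D1:**
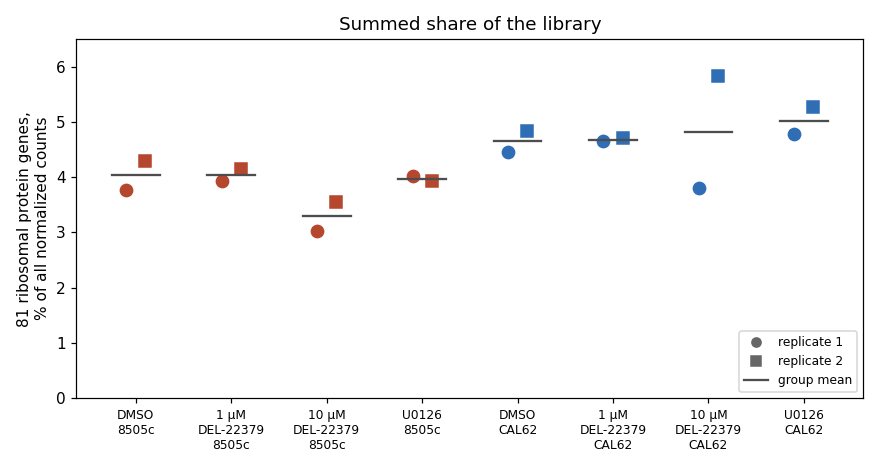
Summed share of all normalized counts taken by the 81 ribosomal protein genes (y axis, %) in each of the 16 libraries, by group (x axis). Circles are replicate 1, squares replicate 2 and lines group means. The 8505c libraries with 10 µM DEL-22379 are the lowest of that line (3.02% and 3.55%), and the CAL62 libraries with 10 µM DEL-22379 lie apart from each other (3.80% and 5.83%).

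The CAL62 pair with 10 µM DEL-22379 stood apart and has to be described before the tests. The share of the 81 genes was 3.80% in replicate 1, the lowest of the 8 CAL62 libraries, and 5.83% in replicate 2, the highest of all 16. Replicate 2 was above replicate 1 for 78 of the 81 genes, with a median difference of 0.67 on the log2 scale (range -0.15 to 0.87). The size set this pair apart, while its direction was seen in some other groups and not in all. In 8505c replicate 2 was above for 78 genes with DMSO and 79 with 10 µM, with medians of 0.13 and 0.28. It was above for 65 genes with 1 µM and 24 with U0126 in that line. In CAL62 replicate 2 was above for 37 genes with DMSO, 18 with 1 µM and 64 with U0126. For 57 of the 81 genes replicate 1 was the lowest and replicate 2 the highest of the 8 CAL62 libraries. In the other groups the median difference of the 2 libraries lay between -0.07 (CAL62 with 1 µM) and 0.28 (8505c with 10 µM), and over all 19127 genes tested it was 0 in the CAL62 pair. Other mRNAs with a terminal oligopyrimidine tract differed in the same direction in that pair (15 of 15 higher in replicate 2, median 0.56), as did the noncoding hosts of small nucleolar RNAs (10 of 10, median 0.61). The nuclear-encoded proteins of the mitochondrial ribosome (25 of 77 higher, median -0.13) and the subunits of oxidative phosphorylation (34 of 75 higher, median -0.03) did not. Replicate 1 had 26395936 reads and replicate 2 had 33916302, with 7.22% and 7.53% of counts from mitochondrial genes. The 8505c 10 µM pair had 27356800 and 40589738 reads, with 5.32% and 4.01% mitochondrial. The part of depth in these splits was not tested. Where tests below rest on these libraries, counts of called genes or median changes are also given without replicate 1 and without replicate 2.

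**Figure D2:**
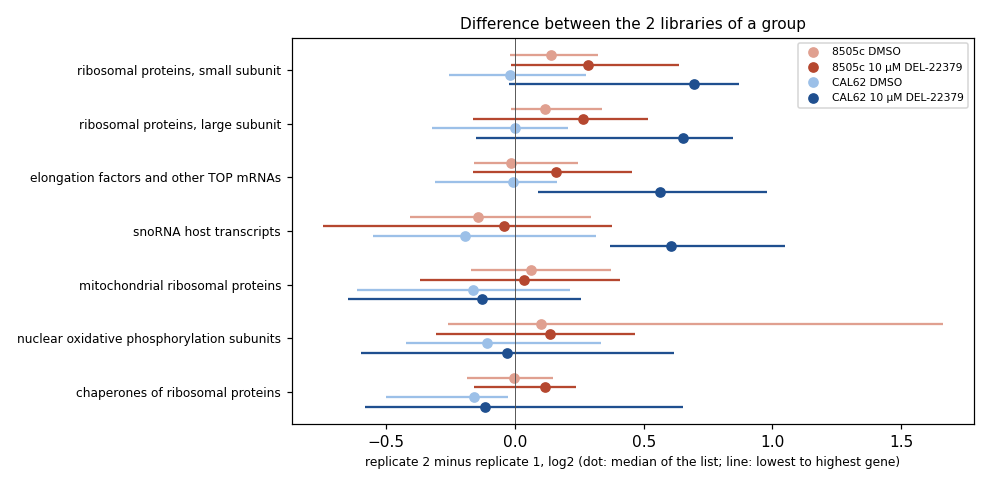
Difference between the 2 libraries of a group, replicate 2 minus replicate 1 (x axis, log2), for the 7 gene lists on the y axis in the DMSO and 10 µM DEL-22379 groups of each line. Dots are list medians and lines run from the lowest to the highest gene. In CAL62 with 10 µM DEL-22379 the ribosomal proteins of both subunits, the other oligopyrimidine mRNAs and the snoRNA hosts have medians from 0.56 to 0.70, whereas the other 3 lists lie between -0.13 and -0.03.

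At 1 µM, DEL-22379 left the 81 genes close to their DMSO levels in both lines. In 8505c none passed an adjusted p of 0.05 in limma, against 0.0157% of all genes tested in either direction, and the median log2 fold change was -0.03 (range -0.11 to 0.13). In CAL62 none passed either, against 0% of all genes, and the median was -0.01 (range -0.14 to 0.16). The log2 fold change was negative for 67 of the 81 genes in 8505c and for 57 in CAL62. No gene of the 81 had an unadjusted p below 0.05 in either line, and edgeR and DESeq2 also called none. RPL26L1 in 8505c and RPL7L1 in CAL62 had the highest values of these ranges. The summed share was 3.93% and 4.15% in 8505c and 4.66% and 4.70% in CAL62.

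At 10 µM, DEL-22379 was accompanied by lower levels of nearly the whole set in 8505c. The log2 fold change was negative for 80 of the 81 genes, with a median of -0.45, while the median over all genes tested was 0.01. RPS27L, at 0.01, was the exception. The normalized counts of both 10 µM libraries lay below both DMSO libraries for 78 of the 81 genes, whereas this held for 29.6% of all genes. For 74 genes the 10 µM libraries were the 2 lowest of the 8 libraries of the line, replicate 1 being the lower in most. Both subunits moved alike, with medians of -0.42 for the small and -0.46 for the large. The summed share fell from 4.03% ± 0.37 (SD, n = 2) with DMSO to 3.29% ± 0.37 (SD, n = 2).

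Gene by gene, 6 of the 81 (7.41%) passed an adjusted p of 0.05 as lower and 0 as higher, close to the 6.57% of all genes called lower and against 7.07% called higher. Beside RPL22L1, described below, they were RPL17, which lies beside the peptide exit tunnel, RPL24, which bridges the subunits, RPL7, its paralog RPL7L1, and RPS24. Reads of RPL17 may be shared with the annotated readthrough gene RPL17-C18orf32, which overlaps it on the same strand. RPL17 had 15513 and 16636 normalized counts with DMSO and 8687 and 11058 with 10 µM, and its log2 fold change was -0.71 ± 0.16 (SE, adjusted p = 0.015). RPS24, which is needed for maturation of the 18S rRNA and is mutated in some cases of Diamond-Blackfan anemia, had 14865 and 15813 with DMSO and 9705 and 11931 with 10 µM, a change of -0.51 ± 0.12 (adjusted p = 0.016). The groups did not overlap for either gene. RPL7 had 36572 and 38520 with DMSO against 23562 and 27100, a change of -0.57 ± 0.15 (adjusted p = 0.027). RPL24 was lower by a log2 value of -0.50 (adjusted p = 0.047) and RPL7L1 by -0.37 (adjusted p = 0.026). None of the 81 had an adjusted p below 0.01 together with a log2 fold change beyond 1.5, which 1.23% of all genes had. The fold changes here are not shrunken, unlike those behind the study's own threshold of that size. In all, 52 genes of the set had an unadjusted p below 0.05, as did 5716 of all 19127 genes. edgeR called 6 of the set lower, where it called 6.58% of all genes lower. DESeq2 called 28 lower. Its share of all genes called lower was 4.97%, taken over the 34623 genes with any read and not over the 19127.

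The count of calls depended on which libraries were in the fit. Without the CAL62 libraries with 10 µM DEL-22379, which are no part of this comparison, 53 of the 81 were called lower, where 8.01% of all genes were, and a fit of 8505c alone called 58, where 13.5% of all genes were called lower. Without replicate 1 of the 10 µM group, or without either DMSO library, only RPL22L1 was called, while the median log2 fold change ranged between -0.57 and -0.30 over all single libraries left out. Bulk RNA cannot tell a lower level in every cell from a change in the mix of cells, and fewer cells of a type and less RNA per cell cannot be told apart.

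**Figure D3:**
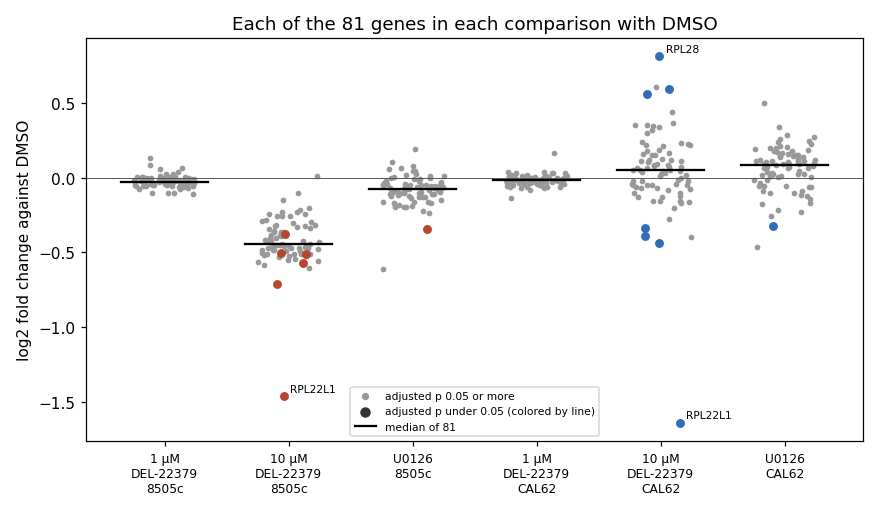
Log2 fold change against DMSO (y axis) of each of the 81 ribosomal protein genes in the 6 comparisons (x axis). Large colored points passed an adjusted p of 0.05 (limma, all 16 libraries), small gray points did not, and black lines are medians. The medians are -0.45 in 8505c and 0.05 in CAL62 at 10 µM DEL-22379, and RPL22L1 is the lowest gene in both.

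In CAL62 at 10 µM the set had no common direction on the mean of the 2 libraries. The median log2 fold change was 0.05, with 48 genes positive and 33 negative. As lower, 4 of the 81 (4.94%) passed the test, against 16.8% of all genes, and as higher 3 (3.7%), against 17.1%. The 10 µM libraries lay above both DMSO libraries for 6 genes and below both for 5, whereas 31.3% and 29.8% of all genes did so. The summed share was 4.82% ± 1.44 (SD, n = 2), against 4.65% ± 0.27 (SD, n = 2) with DMSO.

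The genes called higher were RPL28, RPS9 and RPS27. RPL28, a 60S protein found in eukaryotes only, had 11893 and 13719 normalized counts with DMSO and 18778 and 26799 with 10 µM, a log2 fold change of 0.81 ± 0.15 (SE, adjusted p = 0.0016), and passed the threshold under all 27 alternatives tried. RPS9, which lies where the mRNA enters the 40S subunit, had 13679 and 13260 with DMSO against 15773 and 24915, a change of 0.56 ± 0.17 (adjusted p = 0.022). RPS27, a zinc-binding 40S protein, had 9887 and 10221 against 12051 and 19122, a change of 0.59 ± 0.19 (adjusted p = 0.028). In all of these, both 10 µM libraries were above both DMSO libraries, with replicate 2 far above replicate 1. Without replicate 2 the changes of RPS9 and RPS27 were 0.23 and 0.26 and neither was called.

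The genes called lower in CAL62 were RPL22L1, RPS26, RPL26L1 and RPS24. RPS26, which contacts the mRNA upstream of the start codon, had 6875 and 5915 normalized counts with DMSO and 4564 and 4857 with 10 µM, a log2 fold change of -0.44 ± 0.11 (SE, adjusted p = 0.0083). RPS24 had 21394 and 21047 against 15363 and 18322, a change of -0.34 ± 0.12 (adjusted p = 0.046), and lost the call under 14 of 27 alternatives. Without replicate 1 of the 10 µM group its change was -0.21 (adjusted p = 0.23), and RPL26L1 lost its call without replicate 2 (-0.32, adjusted p = 0.087). Unlike most of the set, these genes were low in both 10 µM libraries. RPL22L1 alone also had an adjusted p below 0.01 with an unshrunken log2 fold change beyond 1.5, as 6.28% of all genes did. Without replicate 1 of the 10 µM group 45 genes were called, 42 of them higher, with a median of 0.39, where 16% of all genes were called higher. Without replicate 2 there were 19, of them 18 lower, with a median of -0.28, where 11.1% of all genes were called lower. The count was smaller than in the reported fit without either DMSO library, fits that leave 1 library in that group. A fit of CAL62 alone called 3, of them 1 higher and 2 lower, where 11.4% and 11.1% of all genes were.

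**Figure D4:**
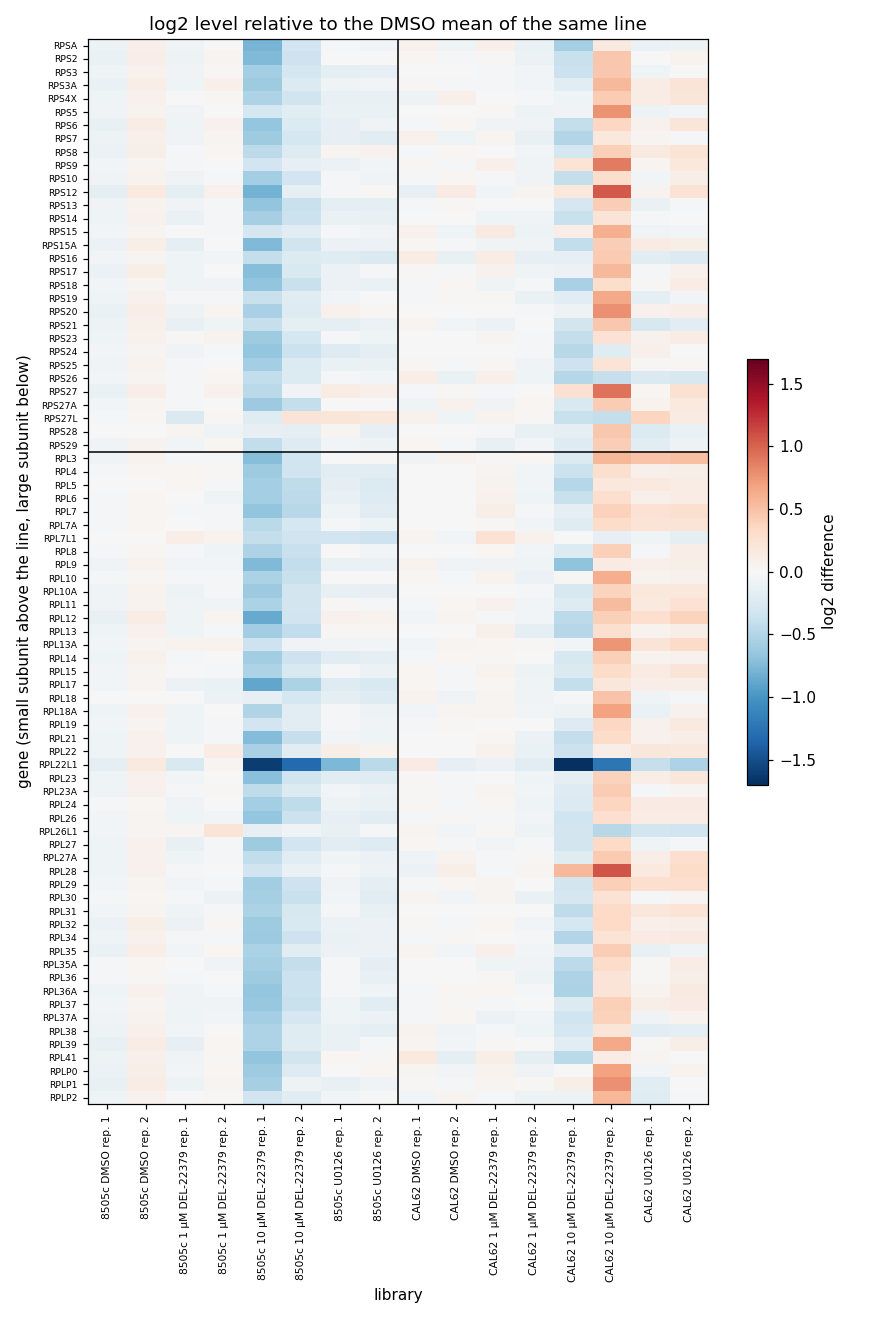
Log2 level of 80 of the 81 genes (rows, small subunit above the horizontal line and large below) in each of the 16 libraries (columns), relative to the mean of the DMSO libraries of the same line. Blue is lower and red higher. The 10 µM DEL-22379 columns are the most strongly colored, blue for both 8505c replicates, blue for CAL62 replicate 1 and red for CAL62 replicate 2, and the RPL22L1 row is dark blue in all 4.

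The difference between the lines in the response to 10 µM DEL-22379 was tested in the same fit as an interaction. It was positive (CAL62 above 8505c) for 77 of the 81 genes, with a median of 0.47, while the median over all genes was -0.03. The median was 0.80 without replicate 1 of the CAL62 10 µM group and 0.15 without replicate 2, and 0.27 and 0.23 with equal totals and with quantile normalization. As positive, 3 genes (3.7%) passed an adjusted p of 0.05, against 7.21% of all genes, and 0 as negative, against 7.17%. They were RPL28 (1.04 ± 0.22, SE, adjusted p = 0.0089), RPL10, which joins the 60S subunit late and carries mutations in some leukemias (0.78 ± 0.22, adjusted p = 0.037), and RPS9 (0.79 ± 0.24, adjusted p = 0.043). RPL10 had 36985 and 38832 normalized counts with DMSO and 25991 and 29120 with 10 µM in 8505c. In CAL62 it had 35173 and 33569 with DMSO and 34794 and 52639 with 10 µM. The CAL62 groups overlapped for this gene, and the 8505c groups did not. RPL28 stayed called without either CAL62 10 µM library, while the count for the set was 73 without replicate 1 of that group, all positive, where 9.27% of all genes were called positive. The count was 1 without replicate 2 of it (4.29% of all genes), and also 1 without any single library of the DMSO or U0126 groups of either line, the 8505c 1 µM group, or replicate 1 of the 8505c 10 µM group.

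U0126 changed the set little in either line. In 8505c the median log2 fold change was -0.08, 1 gene (1.23%) was called lower, against 5.87% of all genes, and 0 higher, against 6.8%. This gene was RPL7L1, with 11038 and 10909 normalized counts with DMSO and 8734 and 8585 with U0126, a change of -0.34 ± 0.10 (SE, adjusted p = 0.039). Over the set the log2 fold change was negative for 69 of the 81 genes. Both U0126 libraries lay below both DMSO libraries for 38 of the 81 genes, against 30% of all genes. The call was lost when any single library of 8505c with DMSO, 1 µM DEL-22379 or U0126, or of CAL62 with U0126, was left out. Without the CAL62 10 µM libraries 2 genes were called.

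In CAL62 the median with U0126 was 0.08, with 59 of the 81 genes positive. Both U0126 libraries lay above both DMSO libraries for 43 of the 81 genes, against 34.9% of all genes. Of the 81, 1 gene (1.23%) was called lower, against 15.1% of all genes, and 0 higher, against 14.1%. RPL26L1, the paralog of RPL26, had 1057 and 985 normalized counts with DMSO and 825 and 803 with U0126, a change of -0.33 ± 0.11 (SE, adjusted p = 0.036). RPL3, which shapes the peptidyl transferase center, had the highest value, 0.50 (adjusted p = 0.087), with 39527 and 42590 against 57379 and 58461. The call of RPL26L1 was lost without either U0126 library of either line or without CAL62 DMSO replicate 1. Without the CAL62 10 µM libraries 3 genes of the set were called, of them 2 higher and 1 lower. The response to U0126 did not differ between the lines for any of the 81 at an adjusted p of 0.05 in limma, against 5.69% of all genes, and none had an unadjusted p below 0.05. edgeR and DESeq2 called none, and the median difference was 0.15, with 67 of the 81 genes positive. The DEL-22379 and U0126 comparisons of a line share their DMSO libraries, so their values are given side by side only.

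RPL22L1 had the largest change of the set in both lines at 10 µM DEL-22379 and the widest fold range over the 16 libraries, from 689.9 to 5737 normalized counts. It is the paralog of RPL22 and takes its place in a share of ribosomes, and RPL22 is known in mice to repress RPL22L1 by binding its RNA. RPL22L1 had 1872 and 2364 normalized counts in 8505c with DMSO, 1755 and 2178 with 1 µM DEL-22379, 689.9 and 842.5 with 10 µM, and 1241 and 1528 with U0126. The 10 µM libraries were the lowest of the line, followed by U0126, and neither overlapped with DMSO. Its log2 fold change at 10 µM was -1.46 ± 0.23 (SE, adjusted p = 0.0021).

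In CAL62, RPL22L1 had 5737 and 4760 normalized counts with DMSO, 4884 and 4608 with 1 µM, 1261 and 2221 with 10 µM and 3973 and 3620 with U0126. The order of the groups was the same as in 8505c, at a higher level. The change at 10 µM was -1.64 ± 0.23 (adjusted p = 0.00025), and it did not differ between the lines beyond the error (difference -0.18 ± 0.32, SE, adjusted p = 0.75). The call at 10 µM held under all 28 alternatives in 8505c and all 27 in CAL62, with log2 fold changes from -1.63 to -1.29 and from -2.05 to -1.23. With U0126 the changes were -0.61 (adjusted p = 0.10) in 8505c and -0.46 (adjusted p = 0.15) in CAL62, with no overlap with DMSO in either line. RPL22 itself changed by -0.36 (adjusted p = 0.14) in 8505c and -0.13 (adjusted p = 0.57) in CAL62 at 10 µM.

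Counted with RPL39L, none of the 5 tested paralogs had a positive change in CAL62 at 10 µM. Their median was -0.40, against 0.05 for the set, and 3 were called lower, where 16.8% of all genes were. The paralog median was -0.47 without replicate 1 of that group and -0.39 without replicate 2. In 8505c at 10 µM 1 of the 5 was positive and 2 were called lower, where 6.57% of all genes were. RPL26L1 had 1382 and 1468 in 8505c with 10 µM against 1479 and 1577 with DMSO, and its change of -0.10 did not pass the test (adjusted p = 0.57). In CAL62 it had 818 and 737 with 10 µM against 1057 and 985, a change of -0.39 ± 0.11 (SE, adjusted p = 0.013). RPL7L1, which acts in ribosome assembly in the nucleolus, was lower in 8505c with 10 µM (8250 and 8687 against 11038 and 10909). In CAL62 it had 7289 and 6633 against 7494 and 7084 (adjusted p = 0.64). RPS27L, a p53 target, had 630 and 840.1 in 8505c with 10 µM against 711 and 736. In CAL62 it had 583 and 575 against 800.3 and 725.6, a change of -0.40 ± 0.15 (adjusted p = 0.058). RPL39L, below the minimum, had 109.8 and 122.8 in CAL62 with 10 µM, 87.9 and 118.8 with U0126 and 255.6 and 200.3 with DMSO, and 436.4 to 609.98 in 8505c. In CAL62 it was called lower with 10 µM DEL-22379 and with U0126.

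**Figure D5:**
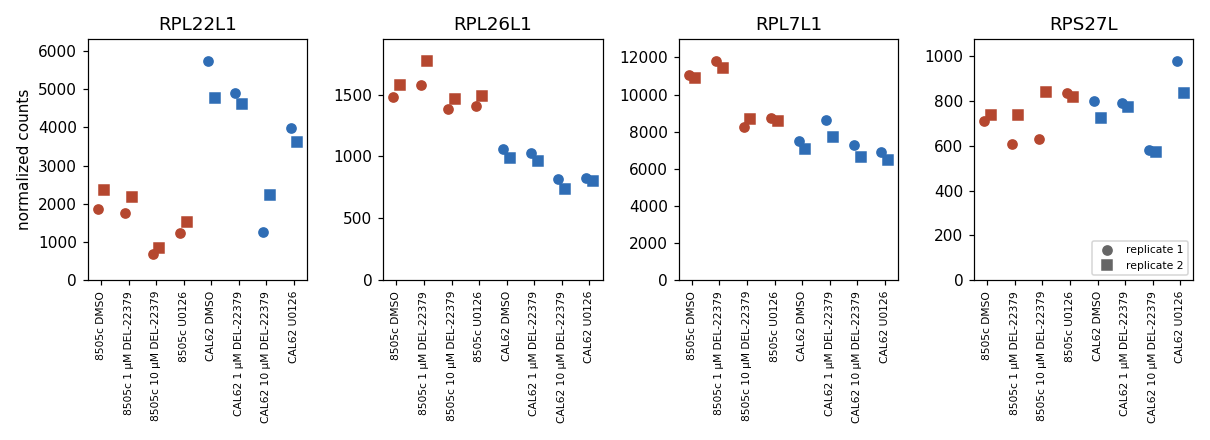
Normalized counts (y axes, from 0) of the paralogs RPL22L1, RPL26L1, RPL7L1 and RPS27L in the 16 libraries by group (x axes), circles for replicate 1 and squares for replicate 2, red for 8505c and blue for CAL62. RPL22L1 falls to 689.9 and 842.5 in 8505c and to 1261 and 2221 in CAL62 with 10 µM DEL-22379, and RPL26L1 and RPL7L1 are lower in CAL62 than in 8505c in the DMSO libraries.

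The proteins of the lateral stalk, which recruits the translation factors, and of the 5S particle had negative changes in 8505c, and none passed the test in either line. RPLP0 had 32525 and 37672 normalized counts with DMSO and 23056 and 30127 with 10 µM in 8505c, and 49821 and 46440 against 48322 and 77340 in CAL62. The changes of RPLP0, RPLP1 and RPLP2 were -0.41, -0.32 and -0.26 in 8505c and 0.35, 0.44 and 0.24 in CAL62, with adjusted p from 0.11 to 0.33. In CAL62 the median of these genes was 0.35, against 0.03 for the large subunit, and it was 0.69 without replicate 1, with all 3 called higher, and 0.01 without replicate 2, with 0 called. RPL5 had 24071 and 24350 with DMSO and 16155 and 17868 with 10 µM in 8505c, a change of -0.51 ± 0.17 (SE, adjusted p = 0.059), and RPL11 changed by -0.42 (adjusted p = 0.15). In CAL62 their changes were -0.15 and 0.16 (adjusted p = 0.51 and 0.53), and 1 of them was called higher without replicate 1 and 1 lower without replicate 2. These libraries did not overlap with DMSO for any of these genes in 8505c except RPLP1, whose second 10 µM library (20913) lay above the first DMSO library (20360).

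RPS6 had 20311 and 24142 normalized counts with DMSO and 13997 and 18898 with 10 µM in 8505c (-0.45, adjusted p = 0.17). RPSA, the laminin receptor, had 24199 and 27475 against 14861 and 20569 (-0.56, adjusted p = 0.084). In CAL62, RPS6 was at 27031 and 45529 with 10 µM against 34764 and 36599, and RPSA at 14671 and 23941 against 22802 and 20458, so the DMSO values lay between the 10 µM values for both. Of the most abundant genes by normalized count, RPS2 showed the same spread in CAL62 (62097 and 110846 against 83041 and 78749), as did RPL3 (34449 and 60630 against 39527 and 42590), RPL4 and RPL8. RPS12, a protein of the 40S head, had the highest interaction estimate of the set, 1.09 ± 0.36 (SE), and missed the threshold (adjusted p = 0.062). It was named after its value was seen.

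With DMSO only, single genes of the set differed between the lines in both directions. The summed share was 3.77% and 4.29% in the 8505c libraries and 4.46% and 4.84% in the CAL62 libraries, without overlap. In CAL62, 12 of the 81 (14.8%) were higher than in 8505c, against 25.6% of all genes, and 8 (9.88%) were lower, against 27.4%, with a median of 0.04. This split moved with the scaling. It was 21 higher and 8 lower with equal totals, where 29.2% of all genes were called higher and 23.3% lower. With quantile normalization it was 23 higher and 7 lower, where 27.6% and 25.8% of all genes were. RPL41, which encodes a very short basic peptide, had 19632 and 22117 normalized counts in 8505c and 63365 and 50679 in CAL62, a log2 difference of 1.44 ± 0.19 (SE, adjusted p = 3.4e-05). RPL22L1 was higher in CAL62 by 1.31 ± 0.23 (adjusted p = 0.00037). RPL32 had 13270 and 15126 against 25909 and 25117 (0.85, adjusted p = 0.0013), and RPS28 had 6302 and 6218 against 10186 and 10115 (0.70, adjusted p = 0.0025). Lower in CAL62 were RPL7L1 (-0.59, adjusted p = 0.00026), RPL26L1 (-0.58, adjusted p = 0.00054), RPL38 (-0.78, adjusted p = 0.0008), RPL14 (-0.71, adjusted p = 0.0034) and RPL37 (-0.65, adjusted p = 0.0053). RPL38, which in mice is needed for translation of some Hox mRNAs, had 7462 and 8356 in 8505c and 4816 and 4418 in CAL62. The groups did not overlap for any gene named here. The count was smaller without 8505c DMSO replicate 1, a fit that leaves 1 library in that group. Without the CAL62 10 µM libraries the count was 43 (24 higher and 19 lower), where 26.4% of all genes were called higher and 28.2% lower.

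Other genes of the pathway were read from lists chosen with earlier results of these data known. At 10 µM in 8505c, 3 of 15 other oligopyrimidine mRNAs were lower and 0 higher, with a median of -0.31, where 6.57% of all genes were lower and 7.07% higher. PABPC1, the poly(A)-binding protein, fell by 0.70 (adjusted p = 0.0067) and the histone chaperone NAP1L1 by 0.62 (adjusted p = 0.021). RACK1, a scaffold on the 40S head, fell by 0.59 (adjusted p = 0.02). In CAL62, 3 of the 15 were higher and 1 lower, with a median of 0.20, where 17.1% of all genes were higher and 16.8% lower. Without replicate 1 of the 10 µM group 10 were higher and 1 lower (median 0.49), and without replicate 2 there were 0 and 2 (median -0.06). PABPC1 rose there by 0.38 (adjusted p = 0.046), a call lost without replicate 2 (adjusted p = 0.21), while EIF3E, an initiation factor subunit, was lower in both lines (-0.46 in 8505c, adjusted p = 0.015, and -0.43 in CAL62, adjusted p = 0.0075). The dedicated chaperones of single ribosomal proteins had 4 of 12 lower in 8505c and 4 of 12 lower in CAL62, with medians of -0.49 and -0.27, and in CAL62 it was 4 of 12 without replicate 1 and 2 of 12 without replicate 2. RPF2, which brings the 5S particle to the pre-ribosome, was lower in both lines with 10 µM DEL-22379 (-0.50, adjusted p = 0.012, and -0.41, adjusted p = 0.013, or 0.073 without CAL62 10 µM replicate 2) and with U0126 (-0.75, adjusted p = 0.0012, and -0.79, adjusted p = 0.00028). With U0126 its binding partner RRS1 was lower too, by -1.08 in 8505c and -1.02 in CAL62 (adjusted p = 0.0098 and 0.0062).

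Several snoRNA host transcripts begin with the same kind of tract. With 10 µM DEL-22379, 0 of 10 were called in 8505c (median -0.12), where 7.07% of all genes were higher and 6.57% lower. In CAL62 4 were higher and 0 lower (median 0.54), where 17.1% of all genes were higher and 16.8% lower. ZFAS1 (1.82, adjusted p = 0.00026) and SNHG7 (1.32, adjusted p = 0.00044) led there. The median was 0.74 without replicate 1 of the CAL62 group and 0.25 without replicate 2, where ZFAS1 was at 1.30 and SNHG7 at 0.99. No host transcript of the 10 had an unadjusted p below 0.05 in 8505c. With U0126, 6 of 10 were lower in 8505c, against 5.87% of all genes, and 3 in CAL62, against 15.1%, SNHG1 in both (-1.05, adjusted p = 0.014, and -1.09, adjusted p = 0.0052). Among 21 regulators of ribosomal protein synthesis, 3 were lower and 0 higher in 8505c at 10 µM (6.57% and 7.07% of all genes), and 3 lower and 9 higher in CAL62 (16.8% and 17.1% of all genes). The CAL62 counts were 2 and 7 without replicate 1 and 2 and 3 without replicate 2. EIF4EBP1, the repressor of the cap-binding protein eIF4E, was lower in both (-0.79, adjusted p = 0.033, and -0.86, adjusted p = 0.0097, or 0.054 without CAL62 replicate 1). MKNK2, an eIF4E kinase activated by ERK, was higher in CAL62 by 1.68 (adjusted p = 0.00045). LARP1 was lower in CAL62 by -0.48 with 10 µM DEL-22379 (adjusted p = 0.013, or 0.056 without replicate 2) and by -0.78 with U0126 (adjusted p = 0.00089).

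The ribosome of mitochondria, whose proteins are also nuclear-encoded, showed another pattern. In CAL62, 41 of 77 mitochondrial ribosomal protein genes were lower and 2 higher at 10 µM (median -0.39), where 16.8% of all genes were lower and 17.1% higher. With U0126 30 were lower and 0 higher (median -0.29), where 15.1% and 14.1% of all genes were. Without replicate 1 of the 10 µM group 42 were lower and 2 higher, and without replicate 2 there were 25 and 2. In 8505c, 9 were lower and 2 higher at 10 µM (median -0.18, 6.57% and 7.07% of all genes), and 4 lower and 1 higher with U0126 (median -0.13, 5.87% and 6.8% of all genes). MRPL40 (-1.19, adjusted p = 3.5e-05) and MRPL42 (-0.96, adjusted p = 0.00011) led in CAL62. The subunits of oxidative phosphorylation, likewise short and abundant mRNAs, had 41 of 75 lower and 1 higher in CAL62 at 10 µM, with 37 and 1 without replicate 1 and 34 and 1 without replicate 2. In 8505c 7 were lower and 0 higher.

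Among the 81 genes, those with and without a run of at least 8 pyrimidines at the start had similar medians. In 8505c at 10 µM the median log2 fold change was -0.44 for the 54 with a run, -0.43 for the 12 without one and -0.47 for the 15 with no start sequence. In CAL62 at 10 µM the medians were 0.05, -0.03 and 0.11 over both libraries. The difference between the 2 CAL62 libraries with 10 µM had medians of 0.67, 0.63 and 0.67. It was positive for all genes with a run (0.09 to 0.86) and ran from -0.15 to 0.85 in those without one, where the 3 genes below 0 were the paralogs RPL7L1, RPL26L1 and RPS27L. RPS27L was also the only gene with a positive log2 fold change (0.01) in 8505c at 10 µM. These are descriptions with no test, and the run was looked for in a fixed window around annotated starts, which need not be the starts used in these cells.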

How the data were processed

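The deposited table held the authors' normalized gene counts, a signal that is never negative and that the values show to be reads times 1 factor per library, for 16 libraries (2 × 51 bases, stranded poly(A) kit, GRCh38 per the submitters' processing notes). Which aligner, counter, annotation release and strand setting were used is not given in the sources used here. Values under 200 were whole multiples of a library-specific step within 0.02 reads in 100% of cases, so reads were recovered for the count alternatives. All columns were mapped to samples by name (0 unmapped). Coordinates came from GENCODE 29 (81 of 81 genes matched by identifier) and start sequences from RefSeq.

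The 19127 genes that reached 10 normalized counts in 2 or more libraries were tested with limma 3.58.1 in R 4.3.3 on log2(normalized count + 1), with trended and robust moderation, 1 mean per group, all 16 libraries and Benjamini-Hochberg adjustment over all genes (8 residual degrees of freedom). Fold changes are on that scale, and calls were made at an adjusted p below 0.05. Alternatives were edgeR 4.0.16 quasi-likelihood and DESeq2 1.42.0 on recovered reads, other scalings, filters and pseudocounts, a replicate block, fits of 1 line, and each library left out. The limma script was tested on simulated data. Other steps used Python 3.11.15 and scipy 1.17.1.

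The members and lists were chosen with earlier results of these data known. Named were, per comparison, the 5 called members with the smallest p in each direction, all members of the P stalk, 5S particle and paralog subgroups, the 5 with the highest mean, those beside the minimum of 500, RPS6 and RPSA, and of other lists up to 4 called genes with the smallest p; any other name was added after its value was seen, RPL12, RPL22, RPL24, RPS12 and the genes without a pyrimidine run among them. Some genes that fall under these rules are not reported here. Replicates are biological per the study's methods. p-values rest on the spread between 2 libraries a group.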

Additional observations from a re-analysis of the deposited data

Results flagged for a closer look

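The response to 10 µM DEL-22379 differed between the lines for 3 of the 81 genes by the interaction test (limma, adjusted p below 0.05), which is 3.7%, where 7.21% of all genes were called in that direction. RPL28 differed by a log2 value of 1.04 (adjusted p = 0.0089), with both CAL62 10 µM libraries above both DMSO libraries and both 8505c 10 µM libraries below theirs. RPS9 differed by 0.79 (adjusted p = 0.043), in the same pattern. RPL10 differed by 0.78 (adjusted p = 0.037), with both 8505c libraries below DMSO and only replicate 2 above DMSO in CAL62. RPL28 kept the call under all 26 alternatives (adjusted p up to 0.039), while RPS9 and RPL10 each lost it under 16 of 26.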

How the results depend on the processing

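The direction and call of RPL22L1 at 10 µM DEL-22379 held in both lines under every alternative tried. The median of the set moved from -0.45 to -0.31 with equal totals and -0.29 with quantile normalization in 8505c at 10 µM, from 0.05 to -0.02 and -0.03 in CAL62 at 10 µM, and from 0.47 to 0.27 and 0.23 in the interaction. With single libraries left out it ranged from -0.57 to -0.30, from -0.28 to 0.39 and from 0.15 to 0.80 in these comparisons. The counts of called genes moved more. For 8505c at 10 µM (6 called), DESeq2 called 28, the fit of that line alone 58, and equal totals, equal totals outside the set and quantile normalization 3 each. In that order, these fits called 4.97%, 13.5%, 3.98%, 4.21% and 6.32% of all genes lower. For DESeq2 this is the share of 34623 genes with any read, and for the other fits that of 19127 genes. Without the CAL62 10 µM libraries, an alternative chosen after seeing the data, the count for 8505c at 10 µM was 53, where 8.01% of all genes were lower. For 8505c with U0126 (1 called) the 3 scalings gave 0, and the single-line fit and the fit without the CAL62 10 µM libraries gave 2. For CAL62 at 10 µM (7 called) the single-line fit gave 3, of them 1 higher and 2 lower, where 11.4% and 11.1% of all genes were. For CAL62 with U0126 (1 called, lower) equal totals, equal totals outside the set, no filter on low values and the single-line fit gave 0. Quantile normalization gave 2, both higher, where 2984 of all genes were called higher and 2870 lower. Leaving out the 10 µM libraries gave 3, of them 2 higher and 1 lower. For the interaction at 10 µM (3 called) DESeq2 gave 13, where it called 4.79% of 34623 genes positive and 4.82% negative. The 3 scalings gave 1 each. In the order above, they called 4.32%, 4.44% and 7.05% of all genes positive, and 11.8%, 11.6% and 8.28% negative. A minimum mean of 50 gave 5 (10.2% positive and 10.1% negative of 13332 genes). A pseudocount of 5 also gave 5 (8.32% and 7.89% of all genes). For the lines with DMSO (20 called) leaving out the CAL62 10 µM libraries gave 43, where 26.4% of all genes were called higher and 28.2% lower.

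With each library left out in turn, the counts ranged from 1 to 54 for 8505c at 10 µM, 0 to 2 for 8505c with U0126, 2 to 45 for CAL62 at 10 µM, 0 to 3 for CAL62 with U0126, 1 to 73 for the interaction at 10 µM and 13 to 43 for the lines with DMSO. They were 0 in all cases at 1 µM and for the interaction with U0126. The libraries behind these ranges are named beside each result, and the cause of the changes was not tested beyond that.

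The replicate numbers are shared by all groups, but nothing in the labels says that they mark a shared culture or day. Deviations of same-numbered libraries correlated at 0.22 to 0.50 across all genes in the 6 pairs of CAL62 groups and at 0.09 to 0.12 in 8505c. With a replicate block, 36 genes of the set were called for 8505c at 10 µM, all lower, where 12.9% of all genes were called lower. The block gave 2 for 8505c with U0126, both lower, and 3 for CAL62 with U0126, of them 1 higher and 2 lower. For the interaction at 10 µM it gave 13, where 12.8% of all genes were called positive and 13.6% negative. For CAL62 at 10 µM it gave 10, 5 higher and 5 lower, where 22% of all genes were called in each direction.

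Scaling to equal totals moved the median of all genes by 0.13 for 8505c at 10 µM, by -0.19 for the interaction and by 0.12 for the lines with DMSO. Relative to that median the set stood at -0.45 in 8505c at 10 µM, against -0.46 in the reported fit, and at -0.29 with quantile normalization. Among all genes, 71% of calls were then higher in 8505c at 10 µM, against 51.9%, and 26.8% in the interaction, against 50.1%.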
